A study of Mus musculus with 229 samples.

Results

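The cells described here are the full-length transcriptomes of 110 single GFP-positive cells from the cerebral cortex of hGFAP-GFP mice, of 229 samples in the whole series. They were chosen by their column names alone, which form sets. One set has 49 cells labelled P3 (postnatal day 3), and the other has 61 cells labelled P4/P6. The labels give 1 stage for all cells of the second set, so its day 4 and day 6 cells were not separated here. The series also holds droplet libraries of cortex and glioblastoma tissue, chromatin profiles, and 113 cells captured in the same way whose titles name a second reporter strain, PDGFRa-GFP. All 110 cells share the strain hGFAP-gfp and the genotype entry "hGFAP normal". In this strain GFP is driven by a human GFAP promoter, which is used by astrocytes, by radial glia and by neural progenitors, so that GFP marks more than 1 cell type and can outlast the promoter's activity in a progenitor's progeny. Cortices of pups were dissociated, and living cells were sorted as GFP-positive and negative for the dead-cell dye 7-AAD, per the labels' protocols. Single cells were then processed on the Fluidigm C1 chip, which captures one cell per chamber and yields cDNA along whole transcripts.

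No animal is named in the labels. Each stage is therefore 1 set of cells, stage and set cannot be told apart, and no test between the stages was made. Values are given as TPM, a level of transcripts corrected for their length and for the cell's total. A gene's change is the log2 ratio of set means, (mean at P4/P6 + 1) over (mean at P3 + 1), so that 1 on this scale is a 2-fold difference and low genes are understated. Where named, the log-mean difference is that of the means over cells of log2(TPM + 1), in which a few very high cells weigh less. Shares of cells carry exact Clopper-Pearson 95% intervals, which cover counting error only and not differences between animals. The median number of genes above 0 was 3768 per cell at P3 (1807 to 5247) and 3405 at P4/P6 (1599 to 5086). The read depth of the cells is unknown, since TPM keeps none. Gapdh, a glycolytic enzyme that all cells use, was at 10 TPM or more in 47 of 49 and 50 of 61 cells, so a gene listed at 0 in a cell may still have been present there.

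In the first postnatal week the cortical radial glia are turning into astrocytes, and progenitors around the ventricle still produce oligodendrocyte precursors and olfactory bulb interneurons. Immature astrocytes divide locally, then acquire glutamate uptake, potassium buffering and gap junction coupling. They take glutamate and glycine away from synapses with transporters, bring thyroid hormone across the blood-brain barrier, and supply neurons with lipids and matrix proteins. Radial glia and young astrocytes share many genes, among them Fabp7, which encodes a brain fatty acid binding protein.

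The 2 sets differed first in how many cells carried astrocyte markers. The marker rule used 5 genes: Slc1a3 (the glutamate transporter GLAST), Aldoc (a glycolytic aldolase of astrocytes), Aqp4 (a water channel of astrocyte endfeet), Gja1 (connexin 43) and Aldh1l1 (a folate enzyme). A cell with at least 3 of the 5 at 10 TPM or more is called an astrocyte-marker cell. There were 30 such cells among 49 at P3 (61.2%, interval 46.2 to 74.8) and 13 among 61 at P4/P6 (21.3%, interval 11.9 to 33.7). At P3, 15 cells carried all 5 genes and 8 carried none; at P4/P6, 6 carried all and 25 none. Cells with most or all of the genes prevailed at P3, and cells with none or 1 at P4/P6.

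**Figure D1:**
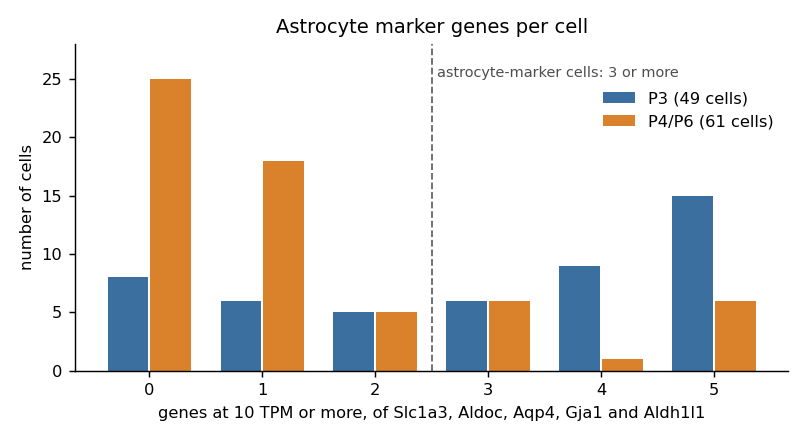
Number of cells (vertical axis) by how many of the 5 rule genes were at 10 TPM or more (horizontal axis), for the 49 P3 and the 61 P4/P6 cells. The dashed line marks the limit of 3 genes; 30 P3 cells and 13 P4/P6 cells lie to its right.

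Near the limit the cells were few, and at P3 the cells on either side of it differed. The 5 P3 cells with exactly 2 rule genes had a summed level of the 26 other astrocyte genes between 3943 and 21326 TPM (median 4561), while the 6 P3 cells with exactly 3 had 43386 to 65599 TPM (median 51207). At P4/P6 the ranges overlapped: 2822 to 20744 TPM (median 5310) in the 5 cells with 2 genes, and 5742 to 67082 TPM (median 30550) in the 6 cells with 3. The limit thus separated P3 cells by other astrocyte genes as well, and P4/P6 cells less sharply.

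Each rule gene was lower over the whole P4/P6 set, as the count of cells fixes in part. Slc1a3 ranged from 0 to 14896 TPM at P3 (median 2685) and from 0 to 11641 TPM at P4/P6 (median 17.3). Its set means were 3653 and 976 TPM, a log2 ratio of -1.90. Aldoc had a median of 440 TPM at P3 and of 0 at P4/P6, with 31 of 49 and 13 of 61 cells at 10 TPM or more. Within the astrocyte-marker cells the medians of Slc1a3 were 5204 and 3658 TPM, and those of Aldoc 2581 and 1339 TPM. The ranges of both genes overlapped widely between the stages there, and since the rule uses these genes, their levels within the class only describe it.

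All cells of each set were also counted by other lists of markers, with at least 3 genes of a list at 10 TPM or more. Cells with interneuron genes, such as the transcription factors Dlx1, Dlx5 and Sp9, made up 4 of 49 at P3 (8.16%, interval 2.27 to 19.6) and 17 of 61 at P4/P6 (27.9%, interval 17.1 to 40.8). Cells with genes of excitatory neurons and their progenitors, such as Eomes, Neurod1 and Tbr1, were 1 of 49 (2.04%, interval 0.0517 to 10.9) and 10 of 61 (16.4%, interval 8.15 to 28.1). No cell of either set met both of these lists, and none of the 43 astrocyte-marker cells met either. Cells with genes of oligodendrocyte precursor cells (OPCs) numbered 10 of 49 (20.4%, interval 10.2 to 34.3) and 18 of 61 (29.5%, interval 18.5 to 42.6), and those with genes of committed oligodendrocytes 9 of 49 and 14 of 61. Of these, 3 and 1 of the OPC cells and 5 and 4 of the committed cells also met the astrocyte rule. In addition, 0 of 49 and 4 of 61 cells met an oligodendrocyte list together with the interneuron or the excitatory list. The broad list of neuroblast and neuron genes, which holds genes that glia use as well, was met by 43 of 49 and 59 of 61 cells, among them 24 of 30 and 11 of 13 astrocyte-marker cells. The intervals of the stages overlapped for both oligodendrocyte lists and for the interneuron and excitatory lists, and did not overlap for the astrocyte rule.

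**Figure D2:**
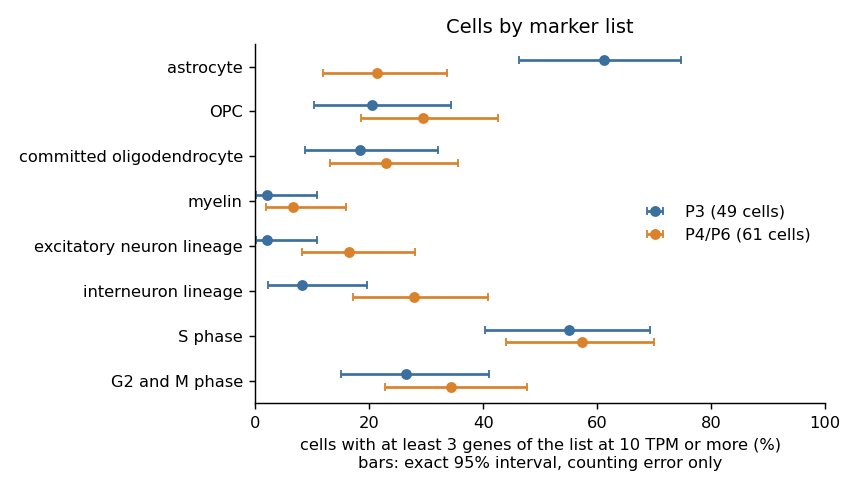
Percentage of cells (horizontal axis) that had at least 3 genes of a marker list at 10 TPM or more, with exact 95% intervals for counting error, in 49 P3 and 61 P4/P6 cells. Astrocyte-marker cells were 61.2% at P3 and 21.3% at P4/P6, and interneuron-lineage cells 8.16% and 27.9%.

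The astrocyte and oligodendrocyte lists met in 8 P3 cells and 4 P4/P6 cells. Cells that met only the astrocyte rule among the astrocyte, oligodendrocyte and neuronal lists numbered 22 at P3 and 9 at P4/P6, and those that met only the interneuron or the excitatory list 5 and 23. In each set 7 cells met none of them, and 6 of those 7 had at least 3 genes of G2 and M phase. Division markers were found at both stages: 13 of 49 and 21 of 61 cells met the G2 and M list (26.5% and 34.4%), and 27 of 49 and 35 of 61 the S phase list. Of the astrocyte-marker cells, 3 of 30 and 2 of 13 met the G2 and M list, and 14 of 30 and 6 of 13 the S phase list. The S phase list holds genes found in most cells. Tyms, for example, was at 10 TPM or more in 17 of 19 and 39 of 48 cells outside the astrocyte rule.

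Cells of other types were near absent. No cell had 3 markers of microglia, of endothelial cells, of mural cells and fibroblasts or of red blood cells, which allows a share of up to 6.12% at P3 and 4.92% at P4/P6. One P3 cell had 3 ependymal markers. Of 12 microglial genes, C1qa, C1qb, C1qc, Csf1r, Aif1 and Tyrobp were listed at 0 in every cell. Rgs5, a pericyte gene, was at 10 TPM or more in 9 and 1 cells. The summed level of the microglial list ran from 0 to 902 TPM at P3 and 0 to 873 at P4/P6, and that of the mural list from 0 to 2685 and 0 to 261 TPM. Rgs5 was listed at 0 in every cell outside the astrocyte rule, and the mural list had a mean sum of 258 and 23.2 TPM in the astrocyte-marker cells of P3 and P4/P6, while Vtn, Kcnj8, Col1a1, Dcn and Acta2 of that list were listed at 0 in all cells of both sets.

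Across the transcriptome, 12564 genes had a mean of at least 1 TPM in either set and are called described genes. Of these, 25.7% were at least 2-fold higher at P4/P6 and 26.1% at least 2-fold lower, with a median log2 ratio of 0.02; by sign alone 50.6% were higher and 49.4% lower. With 1 set per stage and values that are often 0, differences past 2-fold were thus common in both directions, and each gene list below is read against these shares. By the log-mean difference, 408 genes were past 2-fold higher and 804 past 2-fold lower.

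Over the whole sets, the astrocyte and radial glia lists were lower at P4/P6, and the neuronal, OPC and committed oligodendrocyte lists had medians above 0. Of 26 astrocyte genes outside the rule, 20 were lower and 6 higher, 13 of them at least 2-fold lower and 2 at least 2-fold higher, with a median of -0.997. All 17 radial glia and immature glia genes were lower, 10 of them at least 2-fold (median -1.16). All 11 described interneuron genes were at least 2-fold higher (median 2.39), and of 11 described excitatory lineage genes 10 were (median 1.79). By the log-mean difference these medians were only 0.80 and 0.39. Among 24 described genes of neuroblasts and neurons, 23 were higher and 19 at least 2-fold (median 2.01). The OPC list had a median of 1.14, with 8 of 13 genes at least 2-fold higher, and the committed oligodendrocyte list 0.97, with log-mean differences of only 0.29 and 0.22. The 17 glial transcription factors had a median of -0.06. S phase and G2 and M genes had medians of -0.13 and 0.05. The share of astrocyte-marker cells also differed, with 61.2% at P3 and 21.3% at P4/P6, and its part in these medians was not tested.

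When the P4/P6 means were recomputed with the P3 share of astrocyte-marker cells, the median of the astrocyte genes outside the rule went from -0.997 to 0.15 and that of the radial glia list from -1.16 to -0.42. The neuroblast and neuron median stayed above 1, at 1.195, as did the interneuron median at 1.45 and the excitatory median at 1.73. The OPC median was 0.27. The thyroid hormone list stayed at -1.69, against -1.74 before. This reweighting was chosen after the data had been seen. It sets the shares equal by construction, and the part of the shares in any list's difference was not tested.

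**Figure D3:**
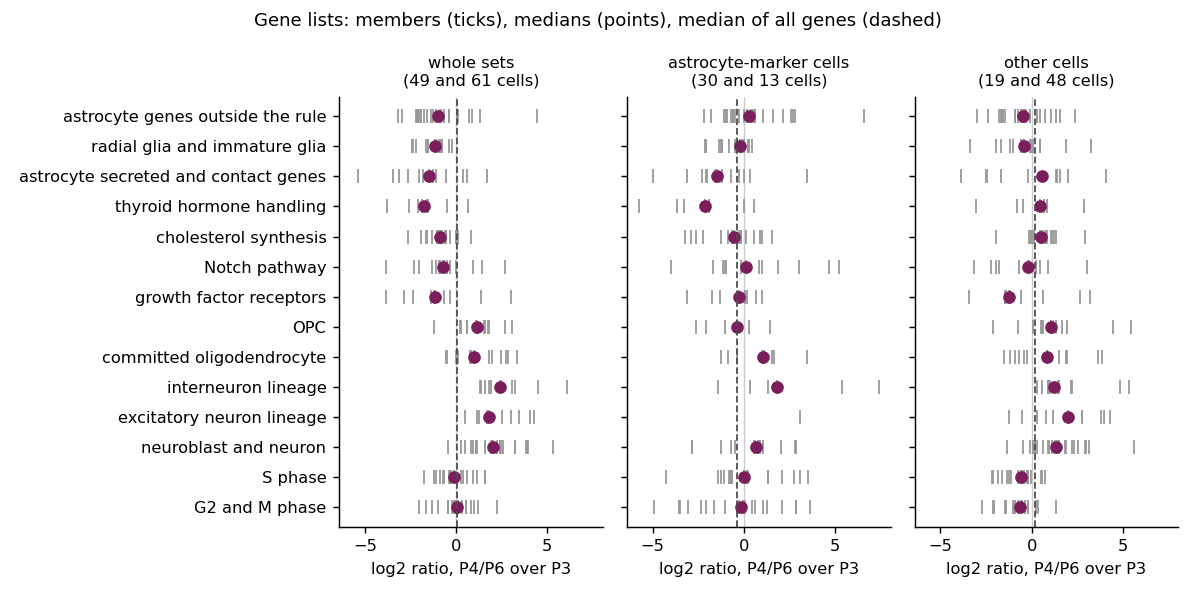
Log2 ratios of means, P4/P6 over P3 (horizontal axis), for the members (ticks) and the median (points) of 14 gene lists, in the whole sets, in astrocyte-marker cells and in the other cells; a median is drawn for lists with at least 3 described genes, and the dashed line is the median of all described genes. The astrocyte list has its median at -0.997 in the whole sets and at 0.28 within astrocyte-marker cells, and the thyroid hormone list lies at -1.74 and -2.14.

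Within the astrocyte-marker cells the comparison rests on 30 cells at P3 and 13 at P4/P6. Here 11110 genes were described, of which 26.6% were at least 2-fold higher at P4/P6 and 40.4% at least 2-fold lower, with a median of -0.40; by sign alone 42.9% were higher and 57.1% lower. By the log-mean difference the median of all described genes was -0.03. The astrocyte genes outside the rule had a median of 0.28, with 16 of 26 higher, 7 of them at least 2-fold, and 3 at least 2-fold lower; by the log-mean difference their median was 0.09. The radial glia list had a median of -0.22, with 11 of 17 lower, and of -0.55 by the log-mean difference. It thus lay above the median of all genes by the ratio of means and below it by the log mean.

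Part of the astrocyte list was much alike at both stages. Apoe, the main lipoprotein of the brain, was at 10 TPM or more in all 43 astrocyte-marker cells, with 97.2 to 15284 TPM at P3 (median 5000) and 155 to 19461 TPM at P4/P6 (median 5225). The ranges overlapped almost wholly. Slc1a2, the glutamate transporter GLT-1, had means of 525 and 733 TPM (log2 ratio 0.48), and Glul, glutamine synthetase, 325 and 364 TPM (0.16). Gfap itself, an intermediate filament, was at 10 TPM or more in 11 of 30 and 5 of 13 cells, with means of 333 and 340 TPM. Over the whole sets Gfap had stood at -1.40 and Apoe at -1.09.

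Some other abundant glial genes were lower at P4/P6 also within the astrocyte-marker cells. They are single members of lists that did not fall as a whole. At least 2-fold lower were 3 of 26 astrocyte and 5 of 17 radial glia genes, against 40.4% of all described genes. Fabp7 ranged from 6411 to 49590 TPM at P3 (median 24136) and from 209 to 28468 TPM at P4/P6 (median 4309). Its means were 25908.5 and 10856 TPM, a log2 ratio of -1.25. The ranges overlapped, but the P4/P6 median lay below the lowest P3 cell. Cpe, carboxypeptidase E, which processes peptide hormones and neuropeptides, ranged from 711 to 24798 TPM at P3 (median 11572) and from 35.9 to 7938 TPM at P4/P6 (median 2341). Its log2 ratio was -2.20, and no P4/P6 cell reached the P3 median. Cst3, which encodes the secreted protease inhibitor cystatin C, had medians of 26771 and 14270 TPM and a log2 ratio of -1.07.

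Of further glial genes, Pea15a, Ttyh1, Ddah1 and Mlc1 stood in the same direction, while Tnc and Sox2 had no settled one. Pea15a, a phosphoprotein abundant in astrocytes, had medians of 1863 and 96.6 TPM (log2 ratio -2.09) and was at 10 TPM or more in 29 of 30 and 9 of 13 cells. Ttyh1, a membrane protein of radial glia and astrocytes, had medians of 906 and 24.3 TPM (-1.79). Ddah1, which breaks down methylated arginine, had medians of 657 and 229 TPM (-1.35). Mlc1, a membrane protein of astrocyte contacts, had medians of 189 and 37.3 TPM (-0.94). Tnc, the matrix protein tenascin C, had medians of 345 and 375 TPM and a log2 ratio of 0.01, with 28 of 30 and 10 of 13 cells at 10 TPM or more and a log-mean difference of -1.44. Sox2, a transcription factor of neural stem cells, gave -1.21, but 0.15 once the highest cell of each set was left out, so that 1 cell decided its direction.

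Within the class 7 of 26 astrocyte genes were at least 2-fold higher at P4/P6, about the share of all described genes (26.6%). Of these 7, some were detected in a larger share of cells and some were not. Ntsr2, a neurotensin receptor of astrocytes, was at 10 TPM or more in 2 of 30 and 5 of 13 cells (log2 ratio 2.12, log-mean difference 2.03), and S100b, a calcium-binding protein, in 1 of 30 and 4 of 13 (2.67 and 2.01). Mt3, a metallothionein, which binds zinc and copper, was at 10 TPM or more in all 43 cells, with 133 to 5708 TPM at P3 (median 1466) and 29.7 to 14054 TPM at P4/P6 (median 2379), a log2 ratio of 1.05 but a log-mean difference of 0.12. The metallothionein Mt2 had medians of 117 and 533 TPM (log2 ratio 2.83, log-mean difference 2.31), and Mt1 stood at 0.57 and 0.33. Cldn10, a claudin, had medians of 37.5 and 90.2 TPM (1.57), with 20 of 30 and 8 of 13 cells at 10 TPM or more and a log-mean difference of 0.46. Slc7a10, an amino acid transporter of astrocytes for serine and glycine, had means of 49.6 and 306 TPM (2.60) with nearly equal medians of 3.26 and 3.06 TPM. The ranges of all these genes overlapped. Gjb6, connexin 30, a gap junction protein of mature astrocytes, was listed at 0 in every P3 cell and was at 10 TPM or more in 2 of 13 P4/P6 cells.

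**Figure D4:**
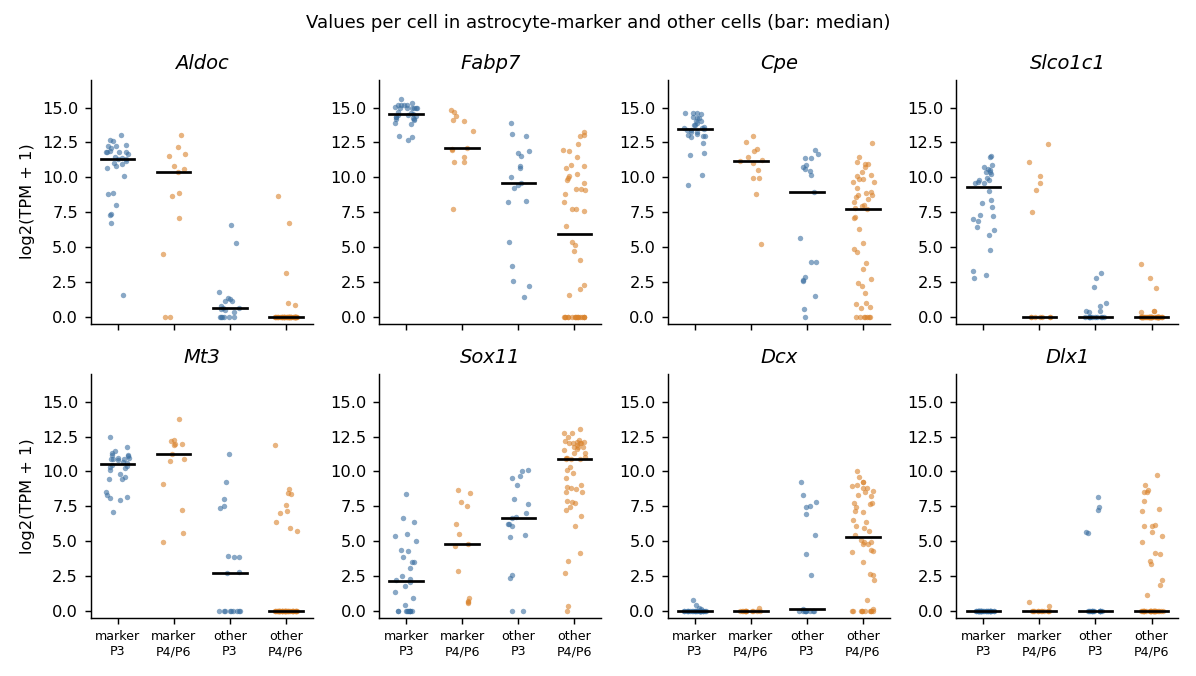
Values per cell as log2(TPM + 1) (vertical axis) of 8 genes in astrocyte-marker cells (30 at P3, 13 at P4/P6) and in the other cells (19 and 48); bars are medians. Fabp7 and Cpe lie lower at P4/P6 in the marker cells, Slco1c1 has 27 of 30 and 6 of 13 marker cells at 10 TPM or more, and Sox11 lies higher at P4/P6 in both classes.

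Among 17 glial transcription factors the median was -0.24 in the astrocyte-marker cells, and -0.31 by the log-mean difference. Sox9, which sets glial fate, had medians of 326.5 and 440 TPM (log2 ratio 0.15), and Nfia, a partner of Sox9 in glial genes, 482 and 325 TPM (-0.28). Nfix, another nuclear factor I protein, had medians of 6.76 and 31.2 TPM (1.47), with 10 of 30 and 8 of 13 cells at 10 TPM or more. Zbtb20, a repressor that favours astrocyte formation, had medians of 6.94 and 42.1 TPM (2.52), with 14 of 30 and 9 of 13 cells. Id4, an inhibitor of helix-loop-helix factors, was at 10 TPM or more in 9 of 30 and 2 of 13 cells (-2.62). Over the whole sets Nfib stood at 1.24 and Nfix at 1.63, and in the other cells at 0.94 and 0.80.

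The list of thyroid hormone handling was the lowest of those with at least 5 described genes in the astrocyte-marker cells, with a median of -2.14. Of its 7 described genes 6 were lower and 5 at least 2-fold lower. Among all described genes there, 57.1% were lower and 40.4% at least 2-fold lower. Slco1c1, a thyroxine carrier of astrocytes and brain vessels, was at 10 TPM or more in 27 of 30 P3 cells (90.0%, interval 73.5 to 97.9) and in 6 of 13 P4/P6 cells (46.2%, interval 19.2 to 74.9). Its medians were 630 and 0 TPM, yet its means were 777 and 771 TPM, since 1 P4/P6 cell reached 5299 TPM; without the highest cell of each set the log2 ratio was -0.83. Klf9, a transcription factor induced by the hormone, was at 10 TPM or more in 14 of 30 and 2 of 13 cells (log2 ratio -1.91). Thra, the hormone receptor alpha, was so in 5 of 30 and 0 of 13 cells, which allows up to 23.1%. Thrb, the receptor beta, and Crym, a protein that binds the hormone, were so in only 1 and 2 P3 cells and in 0 and 1 P4/P6 cells. Dio2, the deiodinase that activates the hormone, had means of 109 and 159 TPM (0.54). By the log-mean difference the list's median was -1.07. In the other cells the list had a median of 0.44 and a log-mean difference of -0.04.

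Secreted and contact genes of astrocytes had a median of -1.46 in the marker cells, with 11 of 13 described genes lower and 8 at least 2-fold. All described genes had a median of -0.40, with 57.1% lower and 40.4% at least 2-fold lower. The list's median was -0.85 without the highest cell of each gene, and -0.48 by the log-mean difference. In the other cells 5 genes of the list were higher and 5 lower. Sparc, a matrix protein that counteracts synapse formation, had medians of 436 and 13.6 TPM, with 24 of 30 and 7 of 13 cells at 10 TPM or more (-2.07). The pericyte gene Rgs5 was so in 9 of 30 and 1 of 13 of these cells, and its part in the values of Sparc was not tested. Chrdl1, a secreted antagonist of bone morphogenetic proteins, was at 10 TPM or more in 7 of 30 and 1 of 13 cells (-4.96), and Megf10, a phagocytic receptor, in 9 of 30 and 1 of 13 (-3.11). Ncan, the proteoglycan neurocan, had medians of 2317 and 276 TPM (-1.18), and Vcan, versican, 107 and 0.46 TPM (-1.46). In the other cells Ncan and Vcan were higher at P4/P6, at 1.41 and 1.35. Bcan, brevican, stood at -0.28 in the marker cells and 4.10 in the other cells.

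The Notch pathway, through which neighbouring cells hold one another in a progenitor or glial state, had no common direction in the marker cells (median 0.11, 7 of 13 described genes higher). Of its receptors, Notch1 had medians of 10.1 and 37.9 TPM (log2 ratio 0.85) and Notch2 66.1 and 72.0 TPM (0.97). Notch3 was at 10 TPM or more in 8 of 30 P3 cells and in 0 of 13 P4/P6 cells (-4.00), and in no other cell of either set. Rgs5, in 9 of 30 and 1 of 13 marker cells, moved with it, and its part was not tested. The ligand Jag1 stood at 1.87 in the marker cells and at -2.21 in the other cells. The target Hes5 gave -2.15, while 7 of 30 and 6 of 13 cells had it at 10 TPM or more, so its means and its shares point in different directions.

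Genes of cholesterol synthesis, which neurons in part obtain from astrocytes, had a median of -0.53 in the marker cells, against -0.40 for all genes, and of -0.68 by the log-mean difference, against -0.03. Sqle (squalene epoxidase) stood at a log2 ratio of -2.63, and Dhcr7, of the last steps, at -2.89. Hmgcs1 had medians of 1158 and 1297 TPM.

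Markers of the intermediate glial progenitor had a median of 0.00 in the marker cells and -0.74 in the other cells. Egfr, a growth factor receptor of dividing progenitors, was at 10 TPM or more in 10 of 30 and 5 of 13 marker cells and in 9 of 19 and 7 of 48 other cells. Immediate early genes respond within minutes to stimulation and to tissue dissociation. Their list, which also holds heat shock genes, had medians of 0.77 in the marker cells and 0.34 in the other cells. By the log-mean difference the medians were 0.30 and -0.23. Ier2 was at 10 TPM or more in 6 of 30 and 7 of 13 marker cells (log2 ratio 4.31), and Fos in 22 of 30 and 6 of 13 (0.67, but a log-mean difference of -1.44). The part of handling in any difference was not tested.

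The cells outside the astrocyte rule numbered 19 at P3 and 48 at P4/P6. Of 11818 genes described in them, 33.3% were at least 2-fold higher at P4/P6 and 24.8% at least 2-fold lower, with a median of 0.20; by sign alone 54.7% were higher and 45.3% lower. Neuronal genes were higher here too. Of 24 genes of neuroblasts and neurons 21 were higher, 14 of them at least 2-fold (median 1.33), and their summed level per cell had a median of 3146 TPM at P3 and 7921 TPM at P4/P6. Sox11, a transcription factor of newborn neurons, ranged from 0 to 1075 TPM at P3 (median 102) and from 0 to 8455 TPM at P4/P6 (median 1916), a log2 ratio of 3.00. The P4/P6 median exceeded every P3 cell. Sox11 was also higher in the marker cells (2.02), with medians of 3.45 and 26.1 TPM.

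Dcx, a microtubule protein of migrating neuroblasts, was at 10 TPM or more in 8 of 19 P3 cells (42.1%, interval 20.2 to 66.5) and 33 of 48 P4/P6 cells (68.8%, interval 53.7 to 81.3). Tubb3, a neuronal tubulin, had medians of 17.3 and 968 TPM. Snap25, a synaptic vesicle fusion protein, was at 10 TPM or more in 3 of 19 and 23 of 48 cells (log2 ratio 2.92), and Stmn2, a growth cone protein, in 3 of 19 and 19 of 48 (2.22). Stmn4, of the same family, was listed at 0 in all 49 P3 cells and was at 10 TPM or more in 12 of 48. No astrocyte-marker cell of either stage had Dcx, Snap25 or Stmn2 at 10 TPM or more. The intervals of the shares overlapped for Dcx and for Snap25.

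All 12 interneuron genes described in the other cells were higher at P4/P6, 7 of them at least 2-fold (median 1.24). Among all genes described there, 54.7% were higher and 33.3% at least 2-fold higher. By the log-mean difference the median of the interneuron list was 0.63. Dlx1 was at 10 TPM or more in 5 of 19 and 17 of 48 cells (log2 ratio 0.93), and Dlx5 in 2 of 19 and 13 of 48 (2.13). Gad1, which makes the transmitter GABA, was so in 2 of 19 and 7 of 48 (2.22). The excitatory list had a median of 1.98 and a log-mean difference of 0.30, and few cells carried it. Tbr1, a factor of deep-layer neurons, was at 10 TPM or more in 0 and 4 cells. Neurod1 was so in 2 and 8 cells, while its log2 ratio was -0.52 because 1 P3 cell had 4138 TPM.

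Oligodendrocyte genes came from a few cells at each stage. Pdgfra, the receptor that defines OPCs, was at 10 TPM or more in 5 of 19 and 12 of 48 other cells and in 0 of 43 marker cells. Its means in the other cells were 279 and 165 TPM (log2 ratio -0.75), but the log2 ratio was 0.56 without the highest cell of each set, so that 1 cell decided its direction. Lhfpl3, a membrane protein of OPCs, was so in 5 and 11 cells (1.68), or 26.3% and 22.9%, with a log-mean difference of 0.06, since 1 P4/P6 cell reached 13363 TPM. Pcdh15, a protocadherin, was so in 1 and 10 cells (4.46). Gpr17, a receptor of committed precursors, was so in 3 and 10 cells (1.92). The myelin gene Mbp had means of 814 and 302 TPM with 1 and 4 cells at 10 TPM or more, and the P3 mean came from 1 cell of 15455 TPM.

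Genes of the cell cycle were lower in the other cells of P4/P6, with medians of -0.57 for S phase and -0.64 for G2 and M. Of 20 G2 and M genes 17 were lower, against 45.3% of all described genes. Only 6 of the 20 were at least 2-fold lower, near the share of all described genes (24.8%). Top2a, which untangles DNA in dividing cells, was at 10 TPM or more in 12 of 19 and 17 of 48 cells (log2 ratio -0.96). Plk1, a mitotic kinase, was so in 8 of 19 and 7 of 48 (-2.74). Cells that met the interneuron or the excitatory list were a larger share of the P4/P6 cells. Of these cells, 3 of 5 at P3 and 10 of 27 at P4/P6 also met the G2 and M list. The part of these cells in the ratios was not tested.

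The genes with the largest whole-set ratios, among those with a mean of at least 10 TPM and at least 25% of cells at 10 TPM in the higher set, were mostly not list members. Of the 15 highest at P4/P6, Snap25, Sox11 and Stmn2 were neuronal. Vps39, of lysosomal fusion, was at 10 TPM or more in 3 of 49 and 16 of 61 cells (log2 ratio 4.82), Ap3b1, of the AP-3 vesicle coat, in 4 and 20 cells (4.44), and Pik3ip1, an inhibitor of PI3 kinase, in 3 and 17 cells (4.55). Satb1, a chromatin organiser, and Cc2d2a, of the primary cilium, stood at 3.10 and 3.19, while each was at 10 TPM or more in 24.5% and 26.2% of cells, with log-mean differences of 0.50 and 0.32. Ahi1, also of the cilium, was so in 15 of 49 and 25 of 61 cells (3.13). Pigyl went opposite ways, with 4.95 in the other cells and -4.24 in the marker cells.

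Of the 15 lowest, Phactr2, a phosphatase and actin regulator, was at 10 TPM or more in 14 of 49 and 0 of 61 cells (-4.99). Mgst1, a glutathione transferase, was so in 25 and 6 cells (-3.75), and Sparc in 25 and 8 (-3.47). Entpd2, which degrades extracellular ATP on astrocytes and progenitors, was so in 13 and 3 cells (-3.78), Daam2, of Wnt signalling, in 13 and 4 (-3.94), and Trps1, a GATA-type repressor, in 21 and 5 (-4.20).

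Within the marker cells the same rule, with 12 genes each way, named no gene of the lists. Highest were Cml1, Mrps26, Glrx5 and Ociad2, and Mrpl34, a mitochondrial ribosomal protein, was at 10 TPM or more in 4 of 30 and 8 of 13 cells (log2 ratio 5.40). Lowest was Fuca1, a lysosomal fucosidase, at 10 TPM or more in 13 of 30 and 0 of 13 cells (-7.72). Adamts3, a procollagen protease, was so in 12 and 0 cells (-7.16), and Nrg1, the growth factor neuregulin 1, in 9 and 0, being listed at 0 in all 13. In the other cells, 4 of the 12 highest were past 2-fold higher, against 33.3% of all genes, and 1 of the 12 lowest past 2-fold lower, against 24.8%.

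Some rows differed between the stages in both classes. They were singled out after their values had been seen, by the smaller of the differences in the share of cells in the marker cells and the other cells. Morf4l1-ps1, a pseudogene row, was at 10 TPM or more in 73.3% of P3 and 7.69% of P4/P6 marker cells, and in 84.2% and 4.17% of the other cells. Its parent Morf4l1, a chromatin protein, was so in 93.9% and 88.5% of all cells. Reads of a gene and its near-identical copy may have been split between the rows, so the level of either is uncertain. Atp6v0c-ps2, another pseudogene row, was so in 79.6% and 39.3% of all cells, and its parent Atp6v0c in 59.2% and 60.7%. Tmf1, a Golgi protein, was so in 100% and 60.7% of all cells, Tmem14c, a mitochondrial carrier of haem synthesis, in 57.1% and 13.1%, and Elovl5, a fatty acid elongase, in 67.3% and 29.5%. Higher at P4/P6 in both classes were Tmem181c-ps, with 12.2% and 54.1% of all cells, Tprkb with 40.8% and 70.5%, and Gnl3l, a nucleolar protein, with 30.6% and 70.5%. The part of the set in these differences cannot be told apart from that of the stage.

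The cells titled PDGFRa-GFP, whose strain field names the other strain and whose titles were followed, gave 1 set of 60 at P3 and 1 of 53 at P6, in a table normalised separately, where 33.9% of 15737 described genes were at least 2-fold higher at P6 and 20.5% at least 2-fold lower. Their neuronal lists stood the other way by stage, though stage and set cannot be told apart in these cells either. By the titles, set 2 is P3 in these cells and P4/P6 in the hGFAP-GFP cells. The median log2 ratio of P6 over P3 was -1.30 for neuroblasts and neurons and -2.02 for interneurons, against 2.01 and 2.39 for P4/P6 over P3 in the hGFAP-GFP cells. Dcx was at 10 TPM or more in 71.7% of P3 and 41.5% of P6 PDGFRa-GFP cells, and in 16.3% and 54.1% of the hGFAP-GFP sets. The astrocyte list outside the rule had a median of 0.11 there. The OPC list had medians of 1.55 there and 1.14 in the hGFAP-GFP sets, where the log-mean difference was 0.29 and cells of the OPC list made up 7 of 19 and 17 of 48 of the other cells. The difference between the strains was not tested.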

How the data were processed

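The authors deposited TPM values per gene and cell, made with RSEM on mm10 per the submitters' processing notes; the version, annotation and filters are not given in the sources used here. The table has 24279 gene rows, and the held values sum to between 0.768 and 0.982 of a full TPM total per cell. Cells were assigned by their titles. No pair of cells held identical values, and the highest correlation between 2 cells was 0.595 (Pearson's r over all genes, log2(TPM + 1)).

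From these values, set means and log2 ratios were computed with a pseudocount of 1 TPM, over genes whose mean reached 1 TPM in one set or both, as were shares of cells at 10 TPM or more (Python 3.11.15, pandas 2.3.3, numpy 2.4.6, scipy 1.17.1). The ratios were checked on simulated data. With 1 set per stage no test was run. Where a share was 0, the upper limit is 3 counts of the total. The 26 lists hold 355 genes, all found in the table, 1 through an older symbol. The cells, lists and rules were chosen with earlier results of these data known. Named genes are the 15 highest and 15 lowest ratios (12 each within a class) among genes with a mean of at least 10 TPM and 25% of cells at 10 TPM in the higher set, leaving aside predicted genes, genes of mitochondrial DNA, of ribosomal proteins and of haemoglobin, Xist, Tsix and Y-linked genes, and within the marker cells without the rule genes. Members of the lists are named as well. Some members are not reported here. Alternatives were other pseudocounts, filters, cell levels, rule limits, scalings, log means and leaving out the highest cell.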

Additional observations from a re-analysis of the deposited data

How the results depend on the processing

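No paired analysis was possible because the numbers in the titles name single cells, not animals or batches shared by the stages. Removing the low filter, rescaling the TPM without the 50 highest genes, rescaling by the median ratio (a factor of 1.02) and keeping cells with at least 2000 genes left each main count within 1.5 times and each main list median within 1.5-fold. The whole-set counts of genes at least 2-fold higher and lower, 3231 and 3278, were 1539 and 1675 with a pseudocount of 10 TPM and 408 and 804 with the mean of log2(TPM + 1). With that log mean the medians were -2.26 for astrocyte genes outside the rule, -2.25 for radial glia, 0.29 for OPC, 0.39 for excitatory and 0.80 for interneuron genes, and Mt2 changed sign to -0.73. The excitatory median was 4.34, 0.99 and 2.41 with pseudocounts of 0.1 and 10 TPM and a mean of at least 10 TPM, and the interneuron median 1.51 with a pseudocount of 10 TPM. Reweighting to equal shares of astrocyte-marker cells gave 0.15 for astrocyte, -0.42 for radial glia, 0.27 for OPC, 1.45 for interneuron, 1.195 for neuroblast and neuron and -0.61 for G2 and M genes, and turned Gfap to 0.043 and Apoe to 0.37. By its construction it removes the difference in shares.

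Within astrocyte-marker cells the counts of 2958 higher and 4488 lower genes were 1131 and 1183 with the log mean and 1913 and 2784 with a pseudocount of 10 TPM; without the highest cell of each gene 1466 were higher. The thyroid list median was -2.73 with 4 rule genes required (24 and 7 cells), -1.07 with the log mean and -1.37 with a pseudocount of 10 TPM, and the secreted and contact median -0.48 with the log mean, -0.85 without the highest cell and -0.60 with a pseudocount of 10 TPM. Signs turned for Pcdh15 (1.29) and Mcm2 (0.017) with 2 rule genes required, Sp8 (-1.67) with 4, Sox2 (0.57) with 50 TPM, Hes5 (0.31) and Plk1 (0.056) with the log mean, and Sox2 (0.15) and Sp8 (-0.99) without the highest cell. No astrocyte-marker cell met the excitatory or interneuron list beside the neuroblast and neuron list, so leaving such cells out removed 0. At 1 TPM, 44.9% of P3 and 70.5% of P4/P6 cells met the G2 and M list, and at 50 TPM 0% of P3 cells met the excitatory list. Among the remaining values (other lists, named genes and their shares), 1065 in the whole sets and 535 within marker cells moved by at most 1.5-fold or stayed within their interval, and 279 and 230 moved further, with no ratio past 2-fold turning its sign beyond those named above. The cause of these shifts was not tested. Depth limits any reading of a gene listed at 0.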
